A study of Homo sapiens with 16 samples.

Results

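A group of 10 members of the matrix metalloproteinase (MMP) system was followed through the raw count table: the secreted enzymes MMP1, MMP2 and MMP3, the membrane-type enzymes MMP14, MMP15, MMP16 and MMP17, and the tissue inhibitors TIMP1, TIMP2 and TIMP3. They were taken by gene symbol, and all 10 were found among the 25370 genes of the table. The filter on low counts left 16004 genes for testing, and 9 of the 10 members passed it. MMP3 did not. RNA-seq had been performed on HMC3 cells, an established human cell line labelled microglial, after 24 h of treatment in serum-free and phenol-red-free medium. Before treatment the cells had spent 24 h in medium with charcoal-stripped serum and then 24 h without serum. There were 8 conditions with 2 libraries each: vehicle, 0.1 nM estradiol (E2), 400 nM ketamine, 400 nM of its metabolite 2R6R-HNK or 2S6S-HNK, and each of the 3 drugs at 400 nM together with 0.1 nM E2. HNK stands for hydroxynorketamine, and the metabolites are stereoisomers of one another. The comparisons asked how each drug altered expression against vehicle, how the 3 drugs differed from one another, and whether E2 altered the response to a drug.

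MMPs are zinc-dependent proteases that are made as inactive proenzymes and cut collagens and other components of the extracellular matrix. MMP1 is an interstitial collagenase, MMP3 a stromelysin and MMP2 a gelatinase, whereas the membrane-type enzymes act at the cell surface. TIMPs bind and block the active enzymes, and TIMP2 has an additional role, since together with MMP14 it brings proMMP2 to the cell surface for activation. In brain tissue microglia are among the cells that make MMPs, which have been studied there in inflammation and in opening of the blood-brain barrier.

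The libraries held 55300614 to 81646165 gene-assigned counts. Levels within a gene are given below as CPM, that is counts scaled to a common library size, as mean ± SD with n = 2 libraries, and levels between genes as CPM per kilobase of exon (RPKM). No label tells whether 2 libraries with the same treatment were grown as separate cultures, so the tests measure the spread between these libraries, which may be technical. Fewer cells and less RNA per cell cannot be told apart in such data. The labelled cell type was checked against marker genes. Of 14 microglia and macrophage markers only CD68, at 20.5 CPM, averaged 1 CPM or more over the 16 libraries. AIF1, CX3CR1, P2RY12, TMEM119, ITGAM, SPI1, PTPRC and TYROBP had at most 7 counts in any library, and C1QA and C1QC were at 0 in all. CSF1R and TREM2 were at 0.728 and 0.723 CPM. Of 8 fibroblast and mesenchymal markers 4 passed 1 CPM, with COL1A1 at 4548, THY1 at 428, PDGFRB at 264 and COL1A2 at 191 CPM, whereas FAP, DCN, COL3A1 and LUM were at 0.102, 0.0474, 0.0344 and 0.00642 CPM. Of 4 epithelial markers 3 passed it, with KRT18 at 514, KRT8 at 70.8 and CDH1 at 1.81 CPM, and EPCAM was at 0.472 CPM. Of the astrocyte markers 2 of 4 passed 1 CPM, and 1 of 3 each for neurons, oligodendrocytes and endothelium, with a summed level of at most 11.0 CPM per list. The defining microglial markers were therefore at or near 0, and the cells are called HMC3 here. The summed CPM of the microglial list ranged from 18.9 to 25.0 between libraries, that of the mesenchymal list from 4260 to 6465 and that of the epithelial list from 389.9 to 784, and their part in the results was not tested.

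The transcripts of TIMP2 and TIMP1 stood above those of the 7 MMPs among the members, whereas TIMP3 stood below MMP14 and MMP15. Over all 16 libraries TIMP2 had the highest level per length, at a mean of 138 RPKM, followed by TIMP1 at 71.1, MMP14 at 31.1, MMP15 at 12.9 and TIMP3 at 6.10 RPKM. MMP17 averaged 1.91 and MMP2 0.823 RPKM. MMP1, MMP16 and MMP3 were near the limit of detection at 0.0854, 0.0196 and 0.0152 RPKM. The order TIMP2, TIMP1, MMP14, MMP15, TIMP3, MMP17 and MMP2 held in every condition without overlap between neighbours, except that MMP17 and MMP2 overlapped with ketamine, where MMP17 was at 1.62 ± 0.0523 and MMP2 at 1.58 ± 0.0863 RPKM. MMP1, MMP16 and MMP3 could not be ordered in every condition, since their libraries overlapped in part.

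**Figure D1:**
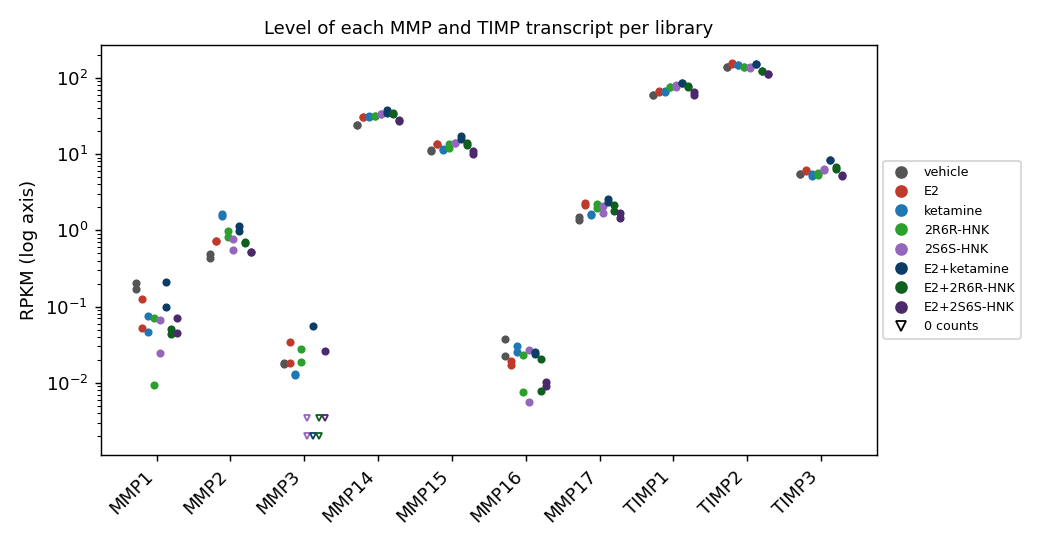
Level of each member in each of the 16 libraries in RPKM on a log axis, coloured by condition, with open triangles for the 6 MMP3 values at 0 counts. TIMP2 lies highest and MMP1, MMP3 and MMP16 lie lowest in every condition.

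The 2 members that represent the protease and the inhibitor side at high level, and for which RefSeq gave the 250 bases before the gene start, are MMP14 and TIMP1. Their sequences are shown on the plus strand of GRCh38.p14, at chr14:22836335-22836584 and chrX:47582186-47582435, with matches to the GC box GGGCGG in capitals on either strand.
MMP14: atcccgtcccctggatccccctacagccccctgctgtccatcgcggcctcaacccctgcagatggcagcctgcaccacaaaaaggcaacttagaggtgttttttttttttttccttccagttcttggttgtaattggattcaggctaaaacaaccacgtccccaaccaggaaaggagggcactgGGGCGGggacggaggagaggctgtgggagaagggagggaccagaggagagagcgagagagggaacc
TIMP1: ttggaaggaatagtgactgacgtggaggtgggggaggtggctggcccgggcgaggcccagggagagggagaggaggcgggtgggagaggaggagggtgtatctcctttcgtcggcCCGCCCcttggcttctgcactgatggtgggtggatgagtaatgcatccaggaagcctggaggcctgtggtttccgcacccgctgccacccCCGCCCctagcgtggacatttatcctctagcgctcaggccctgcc
MMP14 had 1 match and TIMP1 had 2. MMP15 and TIMP3, the other members in that table, had 5 each, and 42.6% of the 35116 windows of this length held at least 1. MMP1, MMP2, MMP3, MMP16, MMP17 and TIMP2 were not matched. No window of the 4 held TATAAA, the AP-1 letters TGANTCA or the STAT letters TTCNNNGAA on either strand, which were found in 10.7%, 6.6% and 6.6% of all windows. The GC content was 56.8% for MMP14, 64.8% for TIMP1, 74.8% for MMP15 and 72.4% for TIMP3, against a median of 58.0%. These matches describe letters only.

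MMP2 (ENSG00000087245, GRCh37 chr16:55423612-55540603, plus strand), the gelatinase that degrades type IV collagen, rose with each drug given alone, and with ketamine and 2R6R-HNK its rise was the largest of the 9 tested members. In CPM, the 2 vehicle libraries were at 2.31 and 2.03 and the ketamine libraries at 7.73 and 7.16. With 2R6R-HNK they were at 4.61 and 3.90, with 2S6S-HNK at 2.57 and 3.60 and with E2 at 3.36 and 3.41. The ketamine libraries were higher than every other library of the study, and every treated library was higher than both vehicle libraries. With E2+ketamine the values were 5.30 and 4.55, with E2+2R6R-HNK 3.22 and 3.35 and with E2+2S6S-HNK 2.44 and 2.44. From a mean of 2.17 ± 0.194 CPM with vehicle, MMP2 thus reached 7.44 ± 0.406 CPM with ketamine, a 3.43-fold difference (log2 fold change 1.78, SE 0.14, adjusted p = 8.61e-16, edgeR quasi-likelihood test and p adjusted by Benjamini-Hochberg over 16004 genes). Ketamine's rise remained called in every alternative run. The log2 fold change was 1.18 with E2+ketamine, 0.98 with 2R6R-HNK, 0.64 with E2 and 0.60 with E2+2R6R-HNK, with adjusted p from 6.19e-10 to 0.000486 by the same test. For E2+2S6S-HNK it was 0.17 (adjusted p = 0.364). After a correction for GC content and length the E2+2R6R-HNK value was 0.22 (adjusted p = 0.217), no longer called. The E2 value was then 0.37 (adjusted p = 0.0488), a call lost when the replicate block was added (adjusted p = 0.0506). The rise with 2S6S-HNK, 0.51 (adjusted p = 0.00363), depended on single libraries: it was 0.25 (adjusted p = 0.261) without replicate 2 of 2S6S-HNK and 0.43 (adjusted p = 0.05002) without replicate 2 of vehicle, and 0.16 (adjusted p = 0.394) after a correction for GC content and length. An exon of MMP2 shares 174 bases with another annotated transcript on the same strand, ENSG00000279030.

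MMP1 (ENSG00000196611, chr11:102660132-102668891, minus strand), the collagenase that cuts fibrillar collagens, went in the opposite direction at a level of few counts. The vehicle libraries held 34 and 28 counts, the ketamine libraries 11 and 17, those with 2R6R-HNK 2 and 11 and those with 2S6S-HNK 10 and 4. With E2 there were 9 and 20, with E2+ketamine 16 and 34, with E2+2R6R-HNK 9 and 10 and with E2+2S6S-HNK 16 and 8 counts. Both vehicle libraries were higher in CPM, at 0.556 and 0.470, than all treated libraries except 1 of E2+ketamine, which was at 0.580. MMP1 fell with each drug, with log2 fold changes of -1.62 with ketamine (SE 0.56, adjusted p = 0.0118), -2.34 with 2R6R-HNK (SE 0.64, adjusted p = 0.00113) and -2.04 with 2S6S-HNK (SE 0.63, adjusted p = 0.00397) in the edgeR test. It also fell with E2+2R6R-HNK (log2 fold change -1.97, adjusted p = 0.00323) and with E2+2S6S-HNK (-1.64, adjusted p = 0.0125). The log2 fold change was -1.09 with E2 (adjusted p = 0.0890) and -0.27 with E2+ketamine (adjusted p = 0.658), neither called.

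Single libraries decided most of these MMP1 calls. The ketamine call was lost without ketamine replicate 1 (-1.32, adjusted p = 0.111) or vehicle replicate 1 (-1.49, adjusted p = 0.0635). The MMP1 difference under 2R6R-HNK was -1.41 without replicate 1 (adjusted p = 0.0838) and -4.21 without replicate 2, and that under 2S6S-HNK -1.48 without replicate 2 (adjusted p = 0.0811). For E2+2S6S-HNK it was -1.38 without its replicate 2 (adjusted p = 0.0895) and -1.52 without vehicle replicate 1 (adjusted p = 0.0640). The call with E2+2R6R-HNK was kept whichever library was left out, and the E2 value became -1.82 (adjusted p = 0.0396) without E2 replicate 2 and -0.59 (adjusted p = 0.472) without E2 replicate 1. Exons of MMP1 overlap WTAPP1, a pseudogene on the opposite strand, over 223 bases, and reads of the 2 could not be told apart if strand was not used in counting.

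MMP3 (ENSG00000149968, chr11:102706532-102714340, minus strand), the stromelysin that also activates other proMMPs, was barely detected. Its count was 0 in 6 of the 16 libraries and at most 6 in the others, with a total of 30. The filter on low counts removed it, so no difference was tested in the main fit. The 6 libraries at 0 were both of 2S6S-HNK, both of E2+2R6R-HNK, replicate 1 of E2+ketamine and replicate 2 of E2+2S6S-HNK. A count of 0 allows up to 3 counts, which is 0.0402 to 0.0547 CPM in these 6 libraries, and such limits cover counting error only. All 16 MMP3 counts were even, as were 11 of the 16 MMP1 counts, and if reads were counted in pairs a count of 0 would allow up to 6 counts, with the limits in CPM higher by the same factor.

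**Figure D2:**
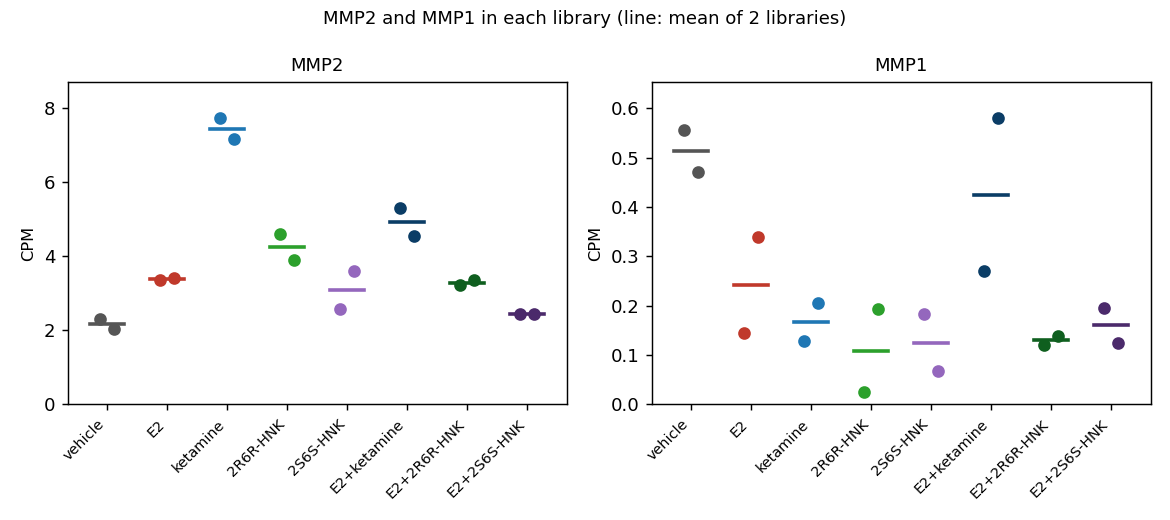
MMP2 and MMP1 in CPM (y axis) in each condition (x axis), with 1 point per library and a line at the mean of the 2 libraries. The 2 ketamine libraries lie highest for MMP2, and the 2 vehicle libraries and 1 E2+ketamine library lie highest for MMP1.

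Among the membrane-type enzymes, MMP14 (ENSG00000157227, chr14:23305769-23318250, plus strand), a transmembrane collagenase and the activator of proMMP2, had the highest level. Its vehicle libraries were at 112 and 112 CPM, lower than all 14 treated libraries. The values were 143 and 143 with E2, 141 and 145 with ketamine, 145 and 146 with 2R6R-HNK and 153 and 157 with 2S6S-HNK. They were 162 and 173 with E2+ketamine, 156 and 158 with E2+2R6R-HNK and 131 and 126 with E2+2S6S-HNK. MMP14 rose in all 7 comparisons, from 0.20 with E2+2S6S-HNK (SE 0.032, adjusted p = 5.87e-07) to 0.58 with E2+ketamine (SE 0.032, adjusted p = 3.75e-22), on the log2 scale in edgeR. With upper-quartile scaling, which raised the median of all genes by 0.10 in that comparison, the rise with E2+2S6S-HNK was 0.30. The rises given for MMP14, MMP15, MMP17, TIMP1 and TIMP2 are those before a correction for base composition, after which none of them was called as a rise.

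MMP15 (ENSG00000102996, chr16:58059658-58080805, plus strand), a transmembrane relative of MMP14, was at 48.0 and 47.1 CPM with vehicle and highest with E2+ketamine, at 67.0 and 72.6. The values were 57.6 and 57.5 with E2, 49.6 and 47.5 with ketamine, 56.8 and 50.6 with 2R6R-HNK, 58.3 and 58.8 with 2S6S-HNK, 58.9 and 56.3 with E2+2R6R-HNK and 46.8 and 42.8 with E2+2S6S-HNK. The 2 E2+2S6S-HNK libraries lay below both vehicle libraries, and 1 of the 2 ketamine libraries lay between them. It rose by 0.55 with E2+ketamine (adjusted p = 7.94e-15), 0.30 with 2S6S-HNK, 0.28 with E2, 0.28 with E2+2R6R-HNK and 0.18 with 2R6R-HNK (adjusted p = 0.00102) on the log2 scale in edgeR. Without 2R6R-HNK replicate 1 the last of these was 0.090 (adjusted p = 0.178). Values of 0.030 with ketamine and -0.083 with E2+2S6S-HNK did not pass the test. Without E2+2S6S-HNK replicate 1 the latter was -0.15. Upper-quartile scaling called the ketamine value higher (0.11, adjusted p = 0.0339). GC and length correction called both lower, at -0.37 with ketamine (adjusted p = 3.50e-12) and -0.44 with E2+2S6S-HNK (adjusted p = 1.73e-14).

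MMP17 (ENSG00000198598, chr12:132312938-132336328, plus strand), which is held in the membrane by a glycosylphosphatidylinositol anchor, was at 6.02 and 5.54 CPM with vehicle. It was at 8.51 and 9.07 with E2, 6.63 and 6.34 with ketamine, 7.84 and 8.85 with 2R6R-HNK and 6.83 and 8.28 with 2S6S-HNK. With E2 added it was at 10.2 and 9.43 (ketamine), 8.62 and 7.18 (2R6R-HNK) and 6.83 and 5.85 (2S6S-HNK). Only the E2+2S6S-HNK libraries overlapped those of vehicle. MMP17 rose by 0.76 with E2+ketamine (adjusted p = 1.56e-08), 0.60 with E2, 0.52 with 2R6R-HNK, 0.45 with E2+2R6R-HNK and 0.39 with 2S6S-HNK (adjusted p = 0.00195), the last being 0.24 (adjusted p = 0.119) without 2S6S-HNK replicate 2. The log2 fold changes with ketamine and E2+2S6S-HNK were 0.17 and 0.14, not called. With 1 library left out they ranged from 0.11 to 0.23 and from 0.017 to 0.24. Upper-quartile scaling called the ketamine value higher (0.25, adjusted p = 0.0421). GC and length correction called the ketamine value lower (-0.25, adjusted p = 0.0476), a call lost when the replicate block was added (adjusted p = 0.0509).

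MMP16 (ENSG00000156103, chr8:89044239-89340254, minus strand), another transmembrane enzyme, had 28 and 16 counts with vehicle, 26 and 31 with ketamine, 18 and 17 with E2+ketamine and 13 and 14 with E2. Libraries with 2R6R-HNK held 7 and 16, with 2S6S-HNK 18 and 4, with E2+2R6R-HNK 7 and 18 and with E2+2S6S-HNK 9 and 8 counts. Among the treated libraries, both of E2, E2+2R6R-HNK and E2+2S6S-HNK and 1 each of 2R6R-HNK and 2S6S-HNK were below both vehicle libraries in CPM. The single call was with E2+2S6S-HNK (-1.62, SE 0.63, adjusted p = 0.0228), and it was lost in DESeq2 (adjusted p = 0.0552). Leaving out replicate 1 of E2+2S6S-HNK gave -1.53 (adjusted p = 0.106), leaving out its replicate 2 gave -1.70 (adjusted p = 0.0605), and leaving out vehicle replicate 1 gave -1.19 (adjusted p = 0.206). In the other 6 comparisons MMP16 ranged from -1.08 to -0.10 without a call, and single libraries moved these values. With 2R6R-HNK it was -0.38 without replicate 1 and -1.98, adjusted p = 0.0297, without replicate 2. With 2S6S-HNK it was -2.39, adjusted p = 0.0166, without replicate 1 and -0.15 without replicate 2. With E2+2R6R-HNK it was -0.53 without replicate 1 and -1.93, adjusted p = 0.0346, without replicate 2.

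The 3 inhibitors followed different profiles. TIMP1 (ENSG00000102265, chrX:47441807-47446188, plus strand), a secreted inhibitor that also binds proMMP9, was at 85.0 and 84.9 CPM with vehicle, below all 14 treated libraries. It was at 96.7 and 93.1 with E2, 96.3 and 94.0 with ketamine, 109.9 and 109 with 2R6R-HNK, 108 and 116 with 2S6S-HNK, 123 and 125 with E2+ketamine, 115 and 111 with E2+2R6R-HNK and 92.9 and 85.9 with E2+2S6S-HNK. TIMP1 rose in 6 comparisons, most with E2+ketamine (0.54, SE 0.036, adjusted p = 7.04e-19) and least with E2 (0.16) and ketamine (0.16; 0.25 with upper-quartile scaling). With E2+2S6S-HNK its log2 fold change was 0.075 (adjusted p = 0.0724), and 0.13 without E2+2S6S-HNK replicate 2. It was called higher with upper-quartile scaling (0.18, adjusted p = 2.37e-05) and with DESeq2 (0.092, adjusted p = 0.0421). Fitting E2+2S6S-HNK and vehicle alone also called it higher (0.14, adjusted p = 0.00115). GC and length correction called it lower (-0.13, adjusted p = 0.000355).

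TIMP2 (ENSG00000035862, chr17:76849059-76921469, minus strand), the inhibitor that also takes part in proMMP2 activation, moved in both directions before any correction for base composition. Its vehicle libraries were at 857 and 869 CPM. E2, ketamine and E2+ketamine libraries lay above them, at 962 and 948, 916 and 909.6 and 945 and 940.2. E2+2R6R-HNK and E2+2S6S-HNK libraries lay below, at 764 and 770.4 and 704 and 697, whereas those of 2R6R-HNK and 2S6S-HNK, at 871 and 862 and 829 and 858, overlapped with vehicle. TIMP2 rose by 0.15, 0.081 and 0.13 on the log2 scale with E2, ketamine and E2+ketamine, with adjusted p of 1.65e-08, 0.000601 and 2.51e-07 in edgeR. It fell by 0.17 with E2+2R6R-HNK and fell by 0.30 with E2+2S6S-HNK, with adjusted p of 3.08e-10 and 6.93e-18. Upper-quartile scaling gave 0.16 for ketamine, -0.088 for E2+2R6R-HNK and -0.20 for E2+2S6S-HNK. The values with 2R6R-HNK and 2S6S-HNK were 0.0058 and -0.032, not called. Without 2S6S-HNK replicate 2 the second was -0.057. The first was called higher with upper-quartile scaling (0.083, adjusted p = 0.000446) and DESeq2 (0.045, adjusted p = 0.0232). GC and length correction called TIMP2 lower in every comparison with vehicle. The corrected values were -0.32 with 2R6R-HNK (adjusted p = 9.33e-28) and -0.39 with 2S6S-HNK (adjusted p = 1.82e-32). TIMP2 exons overlap CEP295NL on the same strand over 224 bases and a long non-coding RNA on the other strand over 367.

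TIMP3 (ENSG00000100234, chr22:33197691-33259028, plus strand), which binds to the matrix and also inhibits several ADAM proteases, was highest with E2+ketamine. Its libraries were at 25.5 and 25.3 CPM with vehicle and 37.9 and 38.1 with E2+ketamine. They were at 29.4 and 31.5 with E2+2R6R-HNK, 28.8 and 29.3 with 2S6S-HNK, 28 and 27.2 with E2, 26.0 and 24.8 with 2R6R-HNK, 23.4 and 25.2 with ketamine and 24.02 and 24.4 with E2+2S6S-HNK. TIMP3 rose by 0.58 with E2+ketamine (SE 0.055, adjusted p = 9.99e-14), 0.26 with E2+2R6R-HNK (adjusted p = 3.34e-05) and 0.20 with 2S6S-HNK (adjusted p = 0.00192) on the log2 scale. Values of 0.12 with E2, -0.064 with ketamine, 0.00146 with 2R6R-HNK and -0.067 with E2+2S6S-HNK were not called, although the E2 value was with upper-quartile scaling (0.19, adjusted p = 0.00345) and DESeq2 (0.15, adjusted p = 0.0267).

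**Figure D3:**
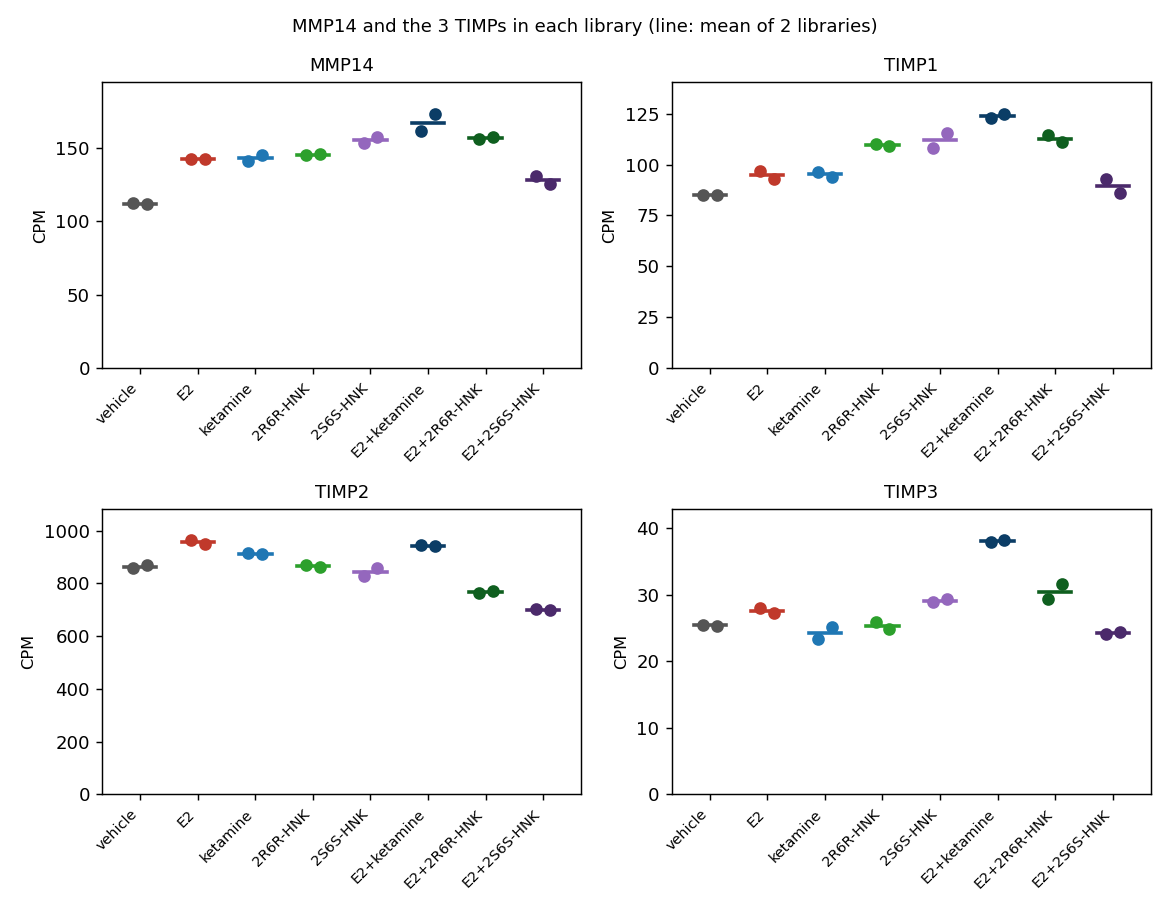
MMP14, TIMP1, TIMP2 and TIMP3 in CPM (y axis, from 0) by condition (x axis), with 1 point per library and a line at the mean of the 2. MMP14 and TIMP1 are lowest in the 2 vehicle libraries and highest in those with E2+ketamine, TIMP3 is highest with E2+ketamine, and TIMP2 is lowest with E2+2S6S-HNK.

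Across the 9 tested members, many calls were made, as they were across all genes. With E2, 6 of 9 members were called higher and 0 lower, against 29.9% and 32.7% of all genes tested. With ketamine, 4 of 9 members were called higher and 1 lower, against 26.8% and 32.5% of all genes tested. For 2R6R-HNK the counts were 5 higher and 1 lower (31.7% and 34.9% of all genes), and for 2S6S-HNK 6 and 1 (32.1% and 35.8%). With E2+ketamine they were 7 and 0 (34.3% and 37.4%), with E2+2R6R-HNK 6 and 2 (33.4% and 36.3%), and with E2+2S6S-HNK 1 and 3 (24% and 35.7%). Most of the called differences were under 2-fold. Members that were called and at least 2-fold different numbered 0 against 1.81% of all genes with E2, 2 against 3.56% with ketamine, 1 against 3.75% with 2R6R-HNK, 1 against 9.08% with 2S6S-HNK, 1 against 11.0% with E2+ketamine, 1 against 11.5% with E2+2R6R-HNK and 2 against 5.85% with E2+2S6S-HNK. These were MMP2 with ketamine and E2+ketamine, MMP1 in the 5 comparisons in which it was called, and MMP16 with E2+2S6S-HNK. The MMP1 and MMP16 values rest on few counts, and most of these calls were lost in a fit with 1 library left out. Before any correction for base composition, the median log2 fold change of the 9 members ranged from -0.067 with E2+2S6S-HNK to 0.55 with E2+ketamine, where the medians of all genes were -0.064 and -0.035. Without vehicle replicate 1 fewer members were called with E2+2S6S-HNK, and the share of all genes called in that fit is not given here. All 7 comparisons share the vehicle libraries.

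Fold changes in these data moved with the base composition of genes, which bears on the small rises. Over 15349 tested genes with a known exon sequence, the log2 fold change against vehicle rose with GC content, with Spearman's rho between 0.444 (E2+2S6S-HNK) and 0.770 (E2+ketamine) across genes, which are not independent replicates. MMP17, MMP15, MMP14, TIMP1, TIMP2 and MMP2 have exon GC contents of 66.2%, 65.0%, 58.7%, 58.4%, 55.4% and 55.2%, above the median of 48.7% of the tested genes, TIMP3 is at 48.7%, and MMP1 and MMP16 are at 43.0% and 36.5%. Whether composition or treatment gives the trend cannot be told apart here. When the counts were corrected for GC content and length, MMP14 lay between -0.058 and 0.032 in the 7 comparisons without a call. The 5 rises of MMP15 turned to falls, from -0.20 with E2 to -0.38 with 2R6R-HNK, all called, and the ketamine and E2+2S6S-HNK values became -0.37 and -0.44, also called. MMP17 ranged from -0.25 to 0.11 and was called only with ketamine, as lower (adjusted p = 0.0476), a call that was lost when the replicate block was added (-0.25, adjusted p = 0.0509). TIMP1 ranged from -0.15 to 0.023, called lower with E2, ketamine and E2+2S6S-HNK, and TIMP2 was called lower in all 7, from -0.14 with E2 to -0.57 with E2+2R6R-HNK. The number of the 9 members called after correction, with the share of all genes called under the same correction in parentheses, was 5 (38.2%) with E2, 6 (48.8%) with ketamine, 4 (45.6%) with 2R6R-HNK, 4 (56.8%) with 2S6S-HNK, 4 (52.3%) with E2+ketamine, 4 (59.3%) with E2+2R6R-HNK and 4 (56.5%) with E2+2S6S-HNK. Fewer of all genes were called than before correction in each of the 7. By direction, the members called higher and lower after correction, with the shares of all genes, numbered 2 and 3 (15.5% and 22.7%) with E2, 1 and 5 (17.8% and 31.0%) with ketamine, 1 and 3 (20.3% and 25.3%) with 2R6R-HNK and 1 and 3 (25.3% and 31.5%) with 2S6S-HNK. They numbered 2 and 2 (24% and 28.3%) with E2+ketamine, 1 and 3 (25.8% and 33.5%) with E2+2R6R-HNK and 0 and 4 (22.5% and 34.1%) with E2+2S6S-HNK. The corrected median of the 9 members was below 0 in all 7 comparisons, from -0.23 with E2+2S6S-HNK to -0.011 with E2+ketamine, where the medians of all genes were -0.052 and -0.021.

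MMP2, MMP1 and TIMP3 kept more of their differences under that correction. MMP2 was 1.53 with ketamine (adjusted p = 1.22e-15), 0.74 with E2+ketamine, 0.65 with 2R6R-HNK and 0.37 with E2, all called, though the E2 call was lost when the replicate block was added (0.37, adjusted p = 0.0506). It was 0.22 with E2+2R6R-HNK (adjusted p = 0.217) and 0.16 with 2S6S-HNK (adjusted p = 0.394), no longer called. All 5 falls of MMP1 remained called, from -1.98 with 2R6R-HNK to -1.35 with ketamine. TIMP3, whose GC content is that of the median gene, was 0.63 with E2+ketamine, 0.25 with E2+2R6R-HNK and 0.19 with 2S6S-HNK, close to the uncorrected values, and its E2 value of 0.13 became called (adjusted p = 0.0484). The fall of MMP16 with E2+2S6S-HNK became -1.30 (adjusted p = 0.0685).

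**Figure D4:**
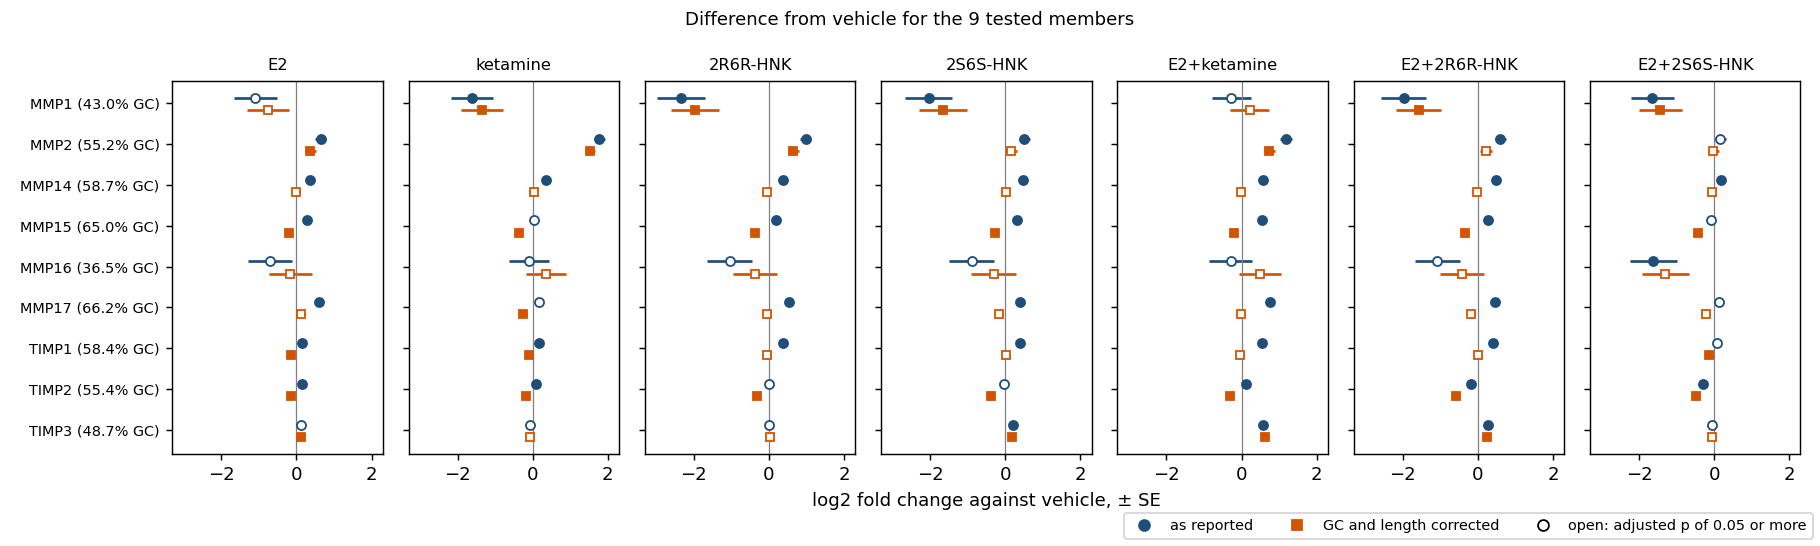
Log2 fold change against vehicle (x axis, ± SE) of the 9 tested members (y axis, with exon GC content) in 7 treatments, as reported (circles) and after GC and length correction (squares), with open symbols where the adjusted p was 0.05 or more. MMP2 with ketamine stays far above 0 in both, whereas the MMP14, MMP15, MMP17 and TIMP1 values lie near or below 0 after correction.

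The 3 drugs were compared with one another at the same dose and time, in 6 pairs: 3 without E2 and 3 with it. Ketamine gave a higher MMP2 level than either metabolite in each setting. MMP2 was higher with ketamine than with 2R6R-HNK by 0.80 on the log2 scale (95% interval 0.54 to 1.05, adjusted p = 5.40e-07) and than with 2S6S-HNK by 1.27 (95% interval 0.996 to 1.54, adjusted p = 3.11e-11) in edgeR. With E2 present the differences were 0.59 (95% interval 0.31 to 0.86, adjusted p = 0.000287) and 1.01 (95% interval 0.73 to 1.30, adjusted p = 1.49e-08). These 4 calls held whichever library was left out of the uncorrected fit and, with all libraries, under GC and length correction, which gave 0.88, 1.37, 0.52 and 0.76. Between the 2 stereoisomers of HNK, MMP2 was higher with 2R6R-HNK than with 2S6S-HNK by 0.47 (95% interval 0.18 to 0.75, adjusted p = 0.00619), which became 0.33 without 2R6R-HNK replicate 1 (adjusted p = 0.146), 0.25 without 2S6S-HNK replicate 1 (adjusted p = 0.237) and 0.73 without 2S6S-HNK replicate 2. With E2 that difference was 0.43 (adjusted p = 0.0106), lost without E2+2R6R-HNK replicate 2 (adjusted p = 0.0585) and with GC and length correction (0.23, adjusted p = 0.244).

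TIMP2 was also higher with ketamine than with either metabolite, by 0.075 and 0.11 without E2 and by 0.30 and 0.43 with it, with adjusted p between 3.63e-24 and 0.00194, and these calls held after correction (0.14, 0.20, 0.25 and 0.17). The TIMP3 difference was -0.26 for ketamine minus 2S6S-HNK without E2 (adjusted p = 9.02e-05) and 0.65 with E2 (adjusted p = 2.79e-15), and after correction the values were -0.27 and 0.69, both called. Between the stereoisomers, TIMP3 differed by -0.19 without E2 (adjusted p = 0.00357; -0.16, adjusted p = 0.0533, without 2R6R-HNK replicate 2) and by 0.33 with it (adjusted p = 8.08e-07), 2R6R-HNK minus 2S6S-HNK. The TIMP1 difference between the stereoisomers was -0.033 without E2 (95% interval -0.10 to 0.039, not called) and 0.33 with E2 (adjusted p = 2.48e-11). After correction these became -0.083 (adjusted p = 0.0248) and 0.13 (adjusted p = 0.000371), both called. MMP1 could not be separated between the drugs without E2, with a difference of 0.73 (95% interval -0.70 to 2.15) between ketamine and 2R6R-HNK. With E2 it was higher with ketamine than with 2R6R-HNK by 1.69 (adjusted p = 0.0174) and than with 2S6S-HNK by 1.37 (adjusted p = 0.0377). The first call was lost without E2+ketamine replicate 2 (1.04, adjusted p = 0.291), E2+2R6R-HNK replicate 1 (1.59, adjusted p = 0.0933) or E2+2R6R-HNK replicate 2 (1.80, adjusted p = 0.0602). The second was lost without E2+ketamine replicate 2 (0.72, adjusted p = 0.425), E2+2S6S-HNK replicate 1 (1.76, adjusted p = 0.0533) or E2+2S6S-HNK replicate 2 (1.11, adjusted p = 0.174) and with DESeq2 (1.43, adjusted p = 0.0836). In all, 5 of 9 members (45.4% of all genes) differed between ketamine and 2R6R-HNK and 6 of 9 members (46.1% of all genes) between ketamine and 2S6S-HNK. Between the metabolites 4 of 9 members differed (43.5% of all genes). Fewer did so without 2R6R-HNK replicate 1, 2R6R-HNK replicate 2 or 2S6S-HNK replicate 1, in fits whose share of all genes is not given here. With E2 the counts were 8 of 9 members (52.0% of all genes), 8 of 9 members (66.8% of all genes) and 7 of 9 members (54.0% of all genes) for the same pairs, and before correction every member called in these 3 was higher in the drug named first. After correction TIMP2 was lower with E2+2R6R-HNK than with E2+2S6S-HNK (-0.083, adjusted p = 3.24e-05). After GC and length correction the counts for the 6 pairs in this order, with the share of all genes called under that correction, were 3 (38.8%), 5 (41.2%), 6 (44.8%), 5 (50.5%), 7 (55.8%) and 3 (29.7%).

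The effect of each drug on MMP2 was lower with E2 present than without it. The interaction term, which is how far a drug's log2 effect under E2 departs from that drug's effect on its own, was called for 7 of 9 members with ketamine (37.5% of all genes), 6 with 2R6R-HNK (56.6%) and 7 with 2S6S-HNK (65.1%), and the last 2 counts are near the shares of all genes. After GC and length correction they were 5 (36.8%), 4 (43.4%) and 2 (40.3%), again with the share of all genes. For MMP2 the term was negative with all 3 drugs. MMP2 went from 2.17 ± 0.194 to 7.44 ± 0.406 CPM with ketamine in the absence of E2, whereas with E2 the levels were 3.39 ± 0.0313 and 4.93 ± 0.529 CPM without and with ketamine, an interaction of -1.24, SE 0.20, adjusted p = 1.35e-06 in edgeR. It was -1.02 for 2R6R-HNK (adjusted p = 2.92e-05) and -0.98 for 2S6S-HNK (adjusted p = 7.67e-05). With GC and length correction the 3 terms were -1.16, -0.81 and -0.55, all called (adjusted p = 0.0337 for the last). In the uncorrected fit, leaving out any 1 library ended none of the 3. The MMP2 level with E2+2S6S-HNK, 2.44 and 2.44 CPM, was below that with E2 alone.

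TIMP3 had a positive interaction with ketamine (0.53, SE 0.077, adjusted p = 2.07e-07) and a negative one with 2S6S-HNK (-0.38, SE 0.079, adjusted p = 2.74e-05), and the corrected values were 0.58 and -0.38, both called. For MMP1 the ketamine term was 2.43 (adjusted p = 0.0134), but it was not called without E2 replicate 1 (1.94, adjusted p = 0.0862), without E2+ketamine replicate 2 (1.78, adjusted p = 0.143) or without ketamine replicate 1 (2.14, adjusted p = 0.0658). The terms of MMP14, MMP15, MMP17, TIMP1 and TIMP2 with 2S6S-HNK were all negative, from -0.85 for MMP17 to -0.41 for TIMP2, and were between -0.17 and 0.043 after correction without a call. The smallest exact permutation p of 2 libraries against 2 is 0.333, so only the fit across all genes can give a call here.

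**Figure D5:**
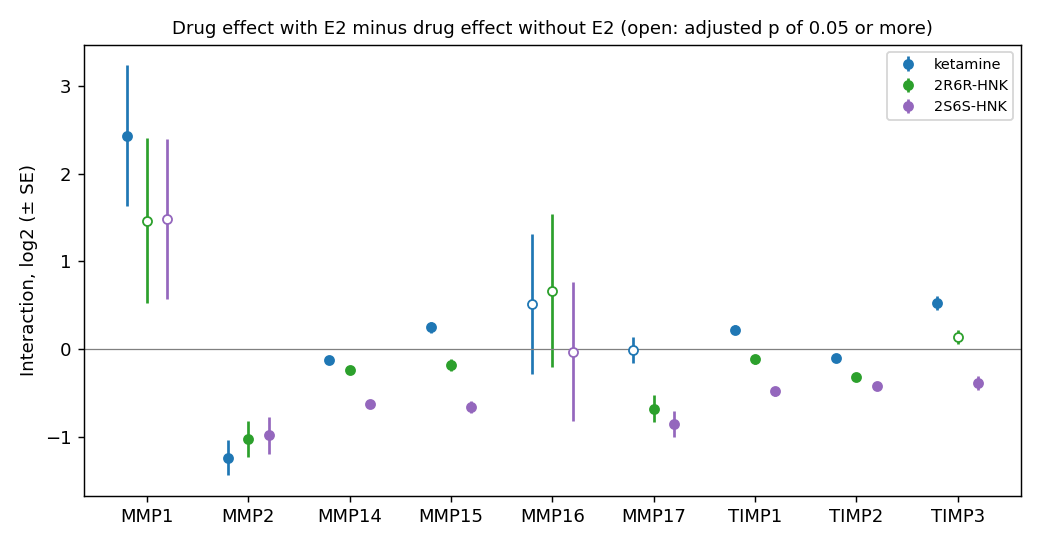
Interaction of each drug with E2 on the log2 scale (y axis, ± SE) for the 9 tested members (x axis), as the drug effect with E2 minus that without E2, with filled points for adjusted p under 0.05. MMP2 is negative for all 3 drugs, and TIMP3 is positive for ketamine and negative for 2S6S-HNK.

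Of the other MMPs and TIMP4, 7 of 18 genes passed the filter on low counts, with 2 to 4 called higher and 0 lower over the 7 comparisons with vehicle. In those comparisons 24% to 34.3% of all genes were called higher and 32.5% to 37.4% lower, and the counts of the lists that follow stand beside the same shares. MMP11, another stromelysin and one that is activated inside the cell by furin, rose from 1.49 and 1.29 CPM with vehicle to 4.43 and 4.04 with 2S6S-HNK (log2 fold change 1.61, adjusted p = 6.64e-12; 1.08 after GC and length correction). MMP23A rose by 1.14 with E2+2R6R-HNK (0.60 after correction), but it is nearly identical to MMP23B, and reads of the 2 genes may be split. Of the activators and other regulators, 15 of 18 were tested, with 3 to 8 called higher and 2 to 6 lower over the 7 comparisons. THBS1, the secreted matrix protein thrombospondin 1, fell by 1.19 with E2+2S6S-HNK, from 1872 and 1905 to 836 and 821 CPM (adjusted p = 8.61e-43). It was also called lower in the other 5 comparisons with a drug, but higher with E2 alone (0.22, adjusted p = 2.63e-14). These THBS1 values are before GC and length correction, and its corrected values are not given here.

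The related ADAM family includes cell-surface sheddases, and 10 of 11 listed genes were tested, with 3 to 4 called higher and 3 to 5 lower over the 7 comparisons. ADAM10 and ADAM9 fell by 1.22 and 1.11 on the log2 scale with E2+ketamine, and after GC and length correction the values were -0.43 and -0.30, still called. ADAM8 rose by 1.67 with E2+2S6S-HNK from 0.425 and 0.587 to 1.73 and 1.48 CPM before correction, and its corrected value is not given here. Of the secreted ADAMTS proteases 15 of 19 were tested, with 5 to 8 called higher and 4 to 6 lower over them. ADAMTS7 rose by 1.72 and ADAMTS10 by 1.27, and ADAMTS3, a procollagen II peptidase, fell by 1.42, all with E2+2R6R-HNK. ADAMTS14, a procollagen peptidase, rose by 1.54 with E2+ketamine. Corrected values were 1.10, 0.65, -1.02 and 0.83. Of 21 matrix substrates 18 were tested, with 7 to 11 called higher and 5 to 8 lower. ACAN, the proteoglycan aggrecan, rose by 1.93 with E2+2R6R-HNK, COL5A1 by 1.10 and the basement membrane protein NID1 by 1.02, with corrected values of 1.53, 0.57 and 0.81. TNC, the glycoprotein tenascin C, fell by 1.08 with E2+2S6S-HNK and was at -1.16 after correction. Every adjusted p in this paragraph was 1.80e-06 or lower before correction.

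The genes whose 8 condition means were most like those of MMP2, out of 10374 candidates, were HPSE (Pearson's r = 0.982), which encodes the heparan sulphate-cutting enzyme heparanase, KIAA1644 (0.965) and ALAD (0.945), an enzyme of haem synthesis. Those most like MMP1 were FST (0.908), ALKBH3 (0.901) and SCN9A (0.899), and those most like MMP16 were MIR614 (0.945), SAP30L (0.933) and TRABD2A (0.929). The correlations are over 8 condition means that share libraries, the genes were picked as the highest of all candidates, and the MMP1 and MMP16 means rest on few counts, so the values are a description.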

How the data were processed

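RNA-seq libraries of HMC3 cells had been prepared by the authors from total RNA with the Ovation RNA-seq system v2 and sequenced as paired reads of 100 bp. The authors deposited 1 table of raw counts per gene for all 16 libraries. The submitters' processing notes name TopHat2 2.0.14, Bowtie2 2.2.6 and featureCounts 1.4.6 with genome build hg19, the study's methods name other versions of the aligners, and whether counting used strand is not given in the sources used here. Every column was matched to a sample by its title. Low counts are mostly even, and the reason was not tested.

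Library sizes were normalised with TMM, genes were filtered with filterByExpr, and edgeR 4.0.16 (R 4.3.3, limma 3.58.1) was used to fit 8 condition means to all 16 libraries. Quasi-likelihood tests gave 16 comparisons: 7 treatments against vehicle, 6 drug pairs and 3 interactions of a drug with E2. A gene was called at a Benjamini-Hochberg adjusted p under 0.05 over 16004 genes, and a second count took only called genes that differed at least 2-fold. SE was taken from the fold change and the F statistic, and intervals are 95%. CPM used normalised library sizes, and RPKM divided CPM by the union of exons in GENCODE lifted to GRCh37, the same sequence as hg19 for these chromosomes. That annotation may differ from the one used for counting. The GC and length correction subtracted, per library, a loess trend (span 0.5) over genes, of which 95.9% had a value. DESeq2 1.42.0 was an alternative. The fit was tested on simulated data, and the outcome is not given here. Chi-square per degree of freedom between replicate libraries was 2.67 to 4.35. Even counts raise this value by themselves, so it does not tell whether replicates were separate RNA samples, and all 16 libraries were counted separately.

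Members and gene lists were chosen with earlier results of these data known. All members are named. From each other list up to 4 genes were named, those with the largest called log2 fold change of at least 1 against vehicle and a mean of at least 1 CPM. For members whose condition means spanned at least 1 on the log2 scale, the 3 genes of at least 5 CPM with the highest correlation were named.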

Additional observations from a re-analysis of the deposited data

Results flagged for a closer look

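The effect of a drug with E2 present differed from its effect without E2 in 20 cases. The test was the interaction term of the edgeR fit with Benjamini-Hochberg adjustment over 16004 genes. Of the 9 tested members 7 were called with ketamine (37.5% of all genes), 6 with 2R6R-HNK (56.6%) and 7 with 2S6S-HNK (65.1%). Each value is the log2 effect of the drug with E2 minus that without E2, from 2 libraries per condition. For ketamine these were MMP1 (2.43, SE 0.81, adjusted p = 0.0134), MMP2 (-1.24, SE 0.20, adjusted p = 1.35e-06), MMP14 (-0.12, SE 0.044, adjusted p = 0.0246), MMP15 (0.25, SE 0.067, adjusted p = 0.00261), TIMP1 (0.22, SE 0.051, adjusted p = 0.000433), TIMP2 (-0.10, SE 0.029, adjusted p = 0.00474) and TIMP3 (0.53, SE 0.077, adjusted p = 2.07e-07). For 2R6R-HNK they were MMP2 (-1.02, SE 0.21, adjusted p = 2.92e-05), MMP14 (-0.24, SE 0.045, adjusted p = 7.22e-06), MMP15 (-0.18, SE 0.068, adjusted p = 0.0222), MMP17 (-0.68, SE 0.15, adjusted p = 0.000119), TIMP1 (-0.12, SE 0.051, adjusted p = 0.0468) and TIMP2 (-0.32, SE 0.029, adjusted p = 1.08e-13). For 2S6S-HNK they were MMP2 (-0.98, SE 0.22, adjusted p = 7.67e-05), MMP14 (-0.63, SE 0.045, adjusted p = 1.87e-17), MMP15 (-0.66, SE 0.068, adjusted p = 3.82e-12), MMP17 (-0.85, SE 0.15, adjusted p = 2.93e-06), TIMP1 (-0.48, SE 0.052, adjusted p = 9.39e-12), TIMP2 (-0.41, SE 0.029, adjusted p = 8.69e-18) and TIMP3 (-0.38, SE 0.079, adjusted p = 2.74e-05). The negative terms of MMP2 were found with all 3 drugs. With ketamine MMP1, MMP15, TIMP1 and TIMP3 had positive terms, whereas before correction every called term with 2R6R-HNK or 2S6S-HNK was negative. Several of these calls were not stable. Leaving out 1 library at a time ended the MMP14 call with ketamine in 6 of 8 fits (range -0.17 to -0.074), the TIMP1 call with 2R6R-HNK in 6 of 8 (-0.14 to -0.088), the MMP15 call with 2R6R-HNK in 3 of 8 (-0.26 to -0.088, the value nearest 0 being without 2R6R-HNK replicate 1) and the MMP1 call with ketamine in 3 of 8 (1.78 to 3.16). The TIMP1 call with 2R6R-HNK was also lost without the filter on low counts (adjusted p = 0.0564), and the MMP15 call with ketamine with upper-quartile scaling (0.16, adjusted p = 0.0501). After GC and length correction the ketamine terms were 2.32 for MMP1, 0.37 for MMP15 and 0.23 for TIMP1, all called, and -0.031 for MMP14 (adjusted p = 0.572) and 0.0062 for TIMP2 (adjusted p = 0.870). With 2R6R-HNK the corrected terms of MMP15 and TIMP1 were positive and called (0.24 and 0.22), that of TIMP2 was -0.10 and called, and those of MMP14 (0.059, adjusted p = 0.209) and MMP17 (-0.24, adjusted p = 0.182) were not called. With 2S6S-HNK the corrected terms were -0.055 for MMP14, 0.029 for MMP15, -0.17 for MMP17, 0.0021 for TIMP1 and 0.043 for TIMP2, none called. The corrected MMP2 and TIMP3 terms are given with the results above. With 2 libraries per condition, no library could be examined as an outlier of its own condition.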

How the results depend on the processing

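Each value was recomputed with upper-quartile normalization, without the filter on low counts, on the groups of the comparison alone, with DESeq2, with the replicate number as a block, with a GC and length correction, and without each library in turn. Halved counts were added after seeing the data, since low counts are mostly even. The replicate numbers do not pair the libraries: deviations of same-numbered libraries correlated by -0.0258 to 0.0451 over 28 pairs of conditions, and the replicate block on its own ended only the calls of MMP1 for E2+ketamine minus E2+2S6S-HNK (1.31, adjusted p = 0.0501) and of the TIMP1 interaction of 2R6R-HNK (-0.12, adjusted p = 0.0508). Added to the GC and length correction it also ended those of MMP2 with E2 and MMP17 with ketamine. DESeq2 gave no adjusted p for 8 member comparisons. Upper-quartile scaling raised the median of all genes against vehicle by 0.061 to 0.10 on the log2 scale. Counts of at most 34 per library, as for MMP1, MMP16 and MMP3, limit those 3 genes. For all changes the cause was not tested.

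With the GC and length correction, with and without the replicate block, the number of members called became 4 for 2S6S-HNK, E2+ketamine and E2+2R6R-HNK against vehicle (56.8%, 52.3% and 59.3% of all genes under the correction without the block), 3 for ketamine minus 2R6R-HNK (38.8%) and E2+2R6R-HNK minus E2+2S6S-HNK (29.7%), 5 for E2+ketamine minus E2+2R6R-HNK (50.5%) and 2 for the 2S6S-HNK interaction (40.3%). The direction turned in 44 member comparisons, for which the log2 values became as follows, the second value being with the replicate block where it differs. MMP14 was against vehicle at -0.013 (E2), -0.054 (2R6R-HNK), -0.011 or -0.012 (E2+ketamine), -0.0079 (E2+2R6R-HNK) and -0.058 or -0.057 (E2+2S6S-HNK), between drugs at 0.087 or 0.086 (ketamine minus 2R6R-HNK), 0.022 (ketamine minus 2S6S-HNK) and -0.0035 or -0.0036 (E2+ketamine minus E2+2R6R-HNK), in the interaction at 0.059 (2R6R-HNK). MMP15 was against vehicle at -0.20 (E2), -0.37 (ketamine), -0.38 (2R6R-HNK), -0.26 (2S6S-HNK), -0.21 (E2+ketamine) and -0.34 (E2+2R6R-HNK), between drugs at 0.0024 or 0.0036 (ketamine minus 2R6R-HNK), in the interaction at 0.24 (2R6R-HNK) and 0.029 or 0.027 (2S6S-HNK). TIMP1 was against vehicle at -0.15 (E2), -0.11 (ketamine), -0.060 or -0.061 (2R6R-HNK), -0.030 or -0.029 (E2+ketamine) and -0.13 (E2+2S6S-HNK), between drugs at -0.033 (E2+ketamine minus E2+2R6R-HNK), in the interaction at 0.22 (2R6R-HNK) and 0.0021 or 0.0014 (2S6S-HNK). TIMP2 was against vehicle at -0.14 (E2), -0.18 (ketamine), -0.32 (2R6R-HNK) and -0.32 (E2+ketamine), between drugs at -0.083 (E2+2R6R-HNK minus E2+2S6S-HNK), in the interaction at 0.0062 or 0.0063 (ketamine) and 0.043 (2S6S-HNK). MMP16 was against vehicle at 0.35 or 0.34 (ketamine) and 0.50 (E2+ketamine). MMP17 was against vehicle at -0.25 (ketamine), -0.043 (2R6R-HNK), -0.17 (2S6S-HNK), -0.018 (E2+ketamine), -0.17 (E2+2R6R-HNK) and -0.23 (E2+2S6S-HNK), in the interaction at 0.11 (ketamine). MMP1 was against vehicle at 0.22 or 0.17 (E2+ketamine). MMP2 was against vehicle at -0.017 or -0.018 (E2+2S6S-HNK).

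Upper-quartile normalization turned uncalled values to 0.020 for TIMP3 with ketamine, 0.043 for TIMP2 with 2S6S-HNK, 0.022 for MMP15 with E2+2S6S-HNK and 0.037 for TIMP3 with E2+2S6S-HNK. It also called MMP15 and MMP17 with ketamine, TIMP2 with 2R6R-HNK, TIMP3 with E2 and TIMP1 with E2+2S6S-HNK as higher, with the values given above, and ended the ketamine interaction of MMP15. DESeq2 also called the last 3 of these and TIMP2 for 2R6R-HNK minus 2S6S-HNK (0.046, adjusted p = 0.0281), and ended the call of MMP15 for that pair (adjusted p = 0.0878). Fitting the groups alone gave 0.0023 for TIMP3 with E2+2S6S-HNK. Halved counts called MMP1 with E2 (-1.14, adjusted p = 0.0496). Leaving out 1 library turned uncalled values of 16 comparisons, so that MMP15 ranged from -0.00082 to 0.060 (ketamine). MMP16 ranged from -0.43 to 0.33 (ketamine), -0.62 to 0.14 (E2+ketamine), -1.09 to 1.35 (2R6R-HNK minus 2S6S-HNK), -0.31 to 1.09 (E2+2R6R-HNK minus E2+2S6S-HNK), -0.19 to 1.61 (2R6R-HNK interaction) and -0.77 to 1.47 (2S6S-HNK interaction). TIMP2 ranged from -0.0038 to 0.016 (2R6R-HNK). TIMP3 ranged from -0.035 to 0.033 (2R6R-HNK). MMP1 ranged from -0.92 to 0.18 (E2+ketamine), -0.21 to 2.60 (ketamine minus 2R6R-HNK), -0.13 to 1.27 (ketamine minus 2S6S-HNK), -2.18 to 0.63 (2R6R-HNK minus 2S6S-HNK) and -0.59 to 0.063 (E2+2R6R-HNK minus E2+2S6S-HNK). TIMP1 ranged from -0.078 to 0.015 (2R6R-HNK minus 2S6S-HNK). MMP17 ranged from -0.070 to 0.049 (ketamine interaction). In at least some fits with 1 library left out, fewer members were called for ketamine, 2R6R-HNK, 2S6S-HNK and E2+2S6S-HNK vs vehicle. The same held for ketamine vs 2R6R-HNK, 2R6R-HNK vs 2S6S-HNK, each drug pair with E2, and the interactions of ketamine and 2R6R-HNK. The share of all genes called in those fits is not given here. Of the genes named from the other lists, none changed direction with 1 library left out, in the comparison where its change was largest. Their other comparisons and the genes named by correlation are not covered by this.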
